A study of Homo sapiens with 7 samples.

Results

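The 9 genes ALAS2, ALAD, UROS, UROD, CPOX, PPOX, FECH, SLC25A37 and SLC25A38 encode enzymes of heme biosynthesis and 2 mitochondrial carriers that feed it, and were taken by name from the 25702 genes of a deposited table of raw read counts. RNA was sequenced from 7 lines of K562, a human cell line from chronic myeloid leukemia that carries the BCR::ABL1 fusion and is labelled as erythroblast, with 1 library per line. The 2 control lines were drug naive K562 cells and K562 cells kept in the DMSO vehicle, and the 5 DasR lines were K562 cells made resistant by growth in rising concentrations of dasatinib, a tyrosine kinase inhibitor. DasR lines at 10, 15 and 25 nM dasatinib formed the early stage group and those at 50 and 200 nM the late stage group. These stages were chosen in the study from a clustering of the same libraries, and the lines come from 1 course of dose escalation, so dose, time in culture and order of selection cannot be told apart. All lines carry BCR::ABL1, but not in the same state. The paper reports that the copy number and transcript level of the fusion differed between lines. It also reports a mutation of the kinase domain that first appeared within the early stage and grew with dose. Dose and stage cannot be told apart from these differences either. The drug naive library held 21007761 counts and the DMSO library 24037893. The early stage libraries held 27808639, 27844799 and 20059656 counts in order of dose, and the late stage libraries 20827519 and 21588772. Levels are given as CPM, the share of the library total in parts per 1000000. The 9 genes had between 234 counts (ALAD at 200 nM) and 14306 counts (SLC25A37 at 10 nM), so all 9 were well above the floor of 3 counts and all 9 were among the 10452 genes tested.

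Heme is an iron-holding ring that hemoglobin, cytochromes and other proteins use to bind oxygen or carry electrons. Its synthesis begins in the mitochondrion, where ALAS2 (in red cell precursors) or ALAS1 (in other cells) joins glycine to succinyl-CoA, passes through the cytosol, where ALAD, UROS and UROD act among others, and returns to the mitochondrion, where CPOX and PPOX act in turn and FECH puts iron into the ring. SLC25A38 is a mitochondrial carrier for glycine and SLC25A37, also called mitoferrin-1, carries iron into mitochondria. Developing red cells make most of the heme of the body, and raise several of these genes together with those of the globins.

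In the early stage lines, most of the 9 genes stood above the controls, and in the 200 nM line 7 of 9 stood at their lowest, as 19.3% of the genes tested did. ALAS2 had the widest range, from 12.2 CPM at 200 nM to 514 CPM at 15 nM, a ratio of 42.2. At an FDR of 0.005, the cutoff of the study, 1 of 9 genes, FECH, rose in early stage lines against controls, where 7.92% of the genes tested rose. The FDR here is a Benjamini-Hochberg adjusted p from edgeR's quasi-likelihood test. The study's methods name edgeR and limma, so the genes it called can differ from those called here. At an FDR of 0.05, 5 of 9 were higher (ALAS2, UROS, UROD, PPOX and FECH), against 22.6% of the genes tested, and none was lower. The median log2 fold change of the 9 was 0.68, and that of all genes tested was 0.003. In 7 of 9 genes every early stage line was above both controls, a pattern seen in 35.9% of the genes tested. In bulk RNA, fewer cells of a kind and less RNA per cell cannot be told apart.

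**Figure D1:**
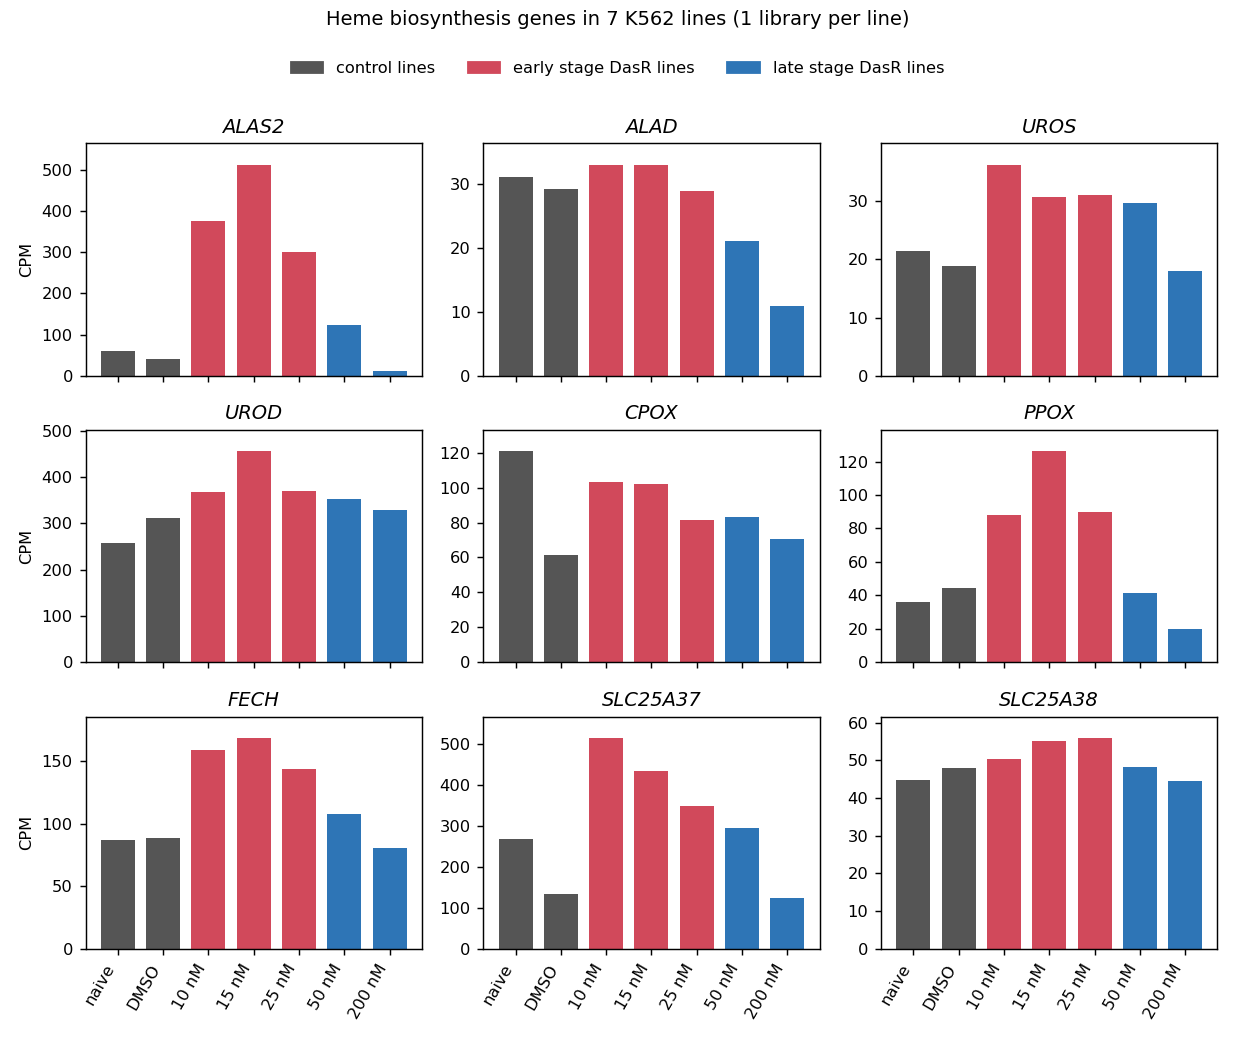
Level of each of the 9 genes in CPM (parts per 1000000 of the library total, linear axis from 0, scaled for each gene) in the 7 K562 lines, 1 bar per library, with controls in gray, early stage DasR lines in red and late stage DasR lines in blue. ALAS2 ran from 12.2 CPM at 200 nM to 514 CPM at 15 nM, and 200 nM was the lowest line for 7 of 9 genes and for 19.3% of the genes tested.

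RefSeq promoters of build GRCh38.p14 were matched for 7 of the 9, without UROS and SLC25A37. The 250 bases before the start of 4 genes are shown because ALAS2, PPOX and FECH had the largest early stage differences with an FDR under 0.05, while CPOX had the smallest difference. They run 5′ to 3′ in the direction of the gene, from chrX:55030978-55031227 (minus) for ALAS2, chr3:98593612-98593861 (minus) for CPOX, chr1:161166176-161166425 (plus) for PPOX and chr18:57586703-57586952 (minus) for FECH, and capitals mark matches to the GATA motif on either strand.
ALAS2: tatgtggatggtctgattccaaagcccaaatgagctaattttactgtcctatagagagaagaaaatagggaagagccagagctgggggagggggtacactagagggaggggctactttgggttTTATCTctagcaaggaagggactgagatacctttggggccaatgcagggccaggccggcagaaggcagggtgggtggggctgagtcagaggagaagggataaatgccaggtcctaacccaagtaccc
CPOX: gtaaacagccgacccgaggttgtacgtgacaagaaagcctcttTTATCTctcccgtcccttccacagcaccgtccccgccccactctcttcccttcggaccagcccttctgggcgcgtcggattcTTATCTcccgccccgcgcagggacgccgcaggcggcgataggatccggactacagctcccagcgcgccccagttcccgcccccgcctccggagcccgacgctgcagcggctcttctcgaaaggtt
PPOX: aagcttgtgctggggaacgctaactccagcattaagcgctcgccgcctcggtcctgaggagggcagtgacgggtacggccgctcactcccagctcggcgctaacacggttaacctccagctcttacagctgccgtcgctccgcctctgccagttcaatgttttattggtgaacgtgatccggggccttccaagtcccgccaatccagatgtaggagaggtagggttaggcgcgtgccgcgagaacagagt
FECH: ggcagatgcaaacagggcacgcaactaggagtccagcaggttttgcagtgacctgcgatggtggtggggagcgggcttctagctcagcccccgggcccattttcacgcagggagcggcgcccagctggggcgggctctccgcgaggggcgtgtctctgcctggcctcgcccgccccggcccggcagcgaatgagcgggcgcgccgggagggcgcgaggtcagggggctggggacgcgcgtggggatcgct
The GATA motif, the letters bound by the erythroid factor GATA1, was searched on both strands as AGATAA, with T in place of the leading A and with G in place of the last A also allowed. It was found in 2 of 7 promoters, once in ALAS2 at 127 bases before the start and at 207 and 125 bases before the start of CPOX. It was found in 22.3% of 35116 RefSeq promoters of this length. The KLF box (CCNCNCCC) was in 4 of 7 (ALAS2, ALAD, CPOX and FECH), and in 53.4% of all promoters. The E-box (CAGCTG, or the form CAGATG) was in PPOX and FECH, 2 of 7, and in 24.3% of all promoters. The NF-E2 or BACH element was searched only as an exact string, with no letter allowed to vary. It was in none of the 7 and in 0.131% of all. The ALAS2 promoter holds a stretch that differs from this string only in its first letter, which was not counted. The search therefore does not show that ALAS2 lacks such an element. The motifs do not share letters with one another except where KLF boxes overlap, and a match is a description of letters, not of binding.

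ALAS2, which catalyses the committed step in red cell precursors, was counted at 58.9 CPM in the drug naive line and 40.9 CPM in the DMSO line. It was at 377, 514 and 300.2 CPM in the 10, 15 and 25 nM lines, and at 124 and 12.2 CPM in the 50 and 200 nM lines. All 3 early stage lines were above both controls, the 50 nM line lay between early stage lines and controls, and the 200 nM line was below every other line. The mean was 397 ± 108 CPM (SD, n = 3) in early stage lines and 49.9 ± 12.7 CPM (SD, n = 2) in controls, a log2 fold change of 2.97 ± 0.86 (SE) with an FDR of 0.0255. This passed 0.05 but not 0.005. With the late stage lines left out of the fit the same fold change had an FDR of 0.000659. ALAS1, the form used in most tissues, ran from 29.3 CPM at 15 nM to 38.2 CPM at 200 nM, and its early stage log2 fold change was −0.29 ± 0.10 with an FDR of 0.0527. Where ALAS2 was at its highest, at 15 nM, ALAS1 was at its lowest, as 18.4% of the genes tested were.

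ALAD, which joins pairs of the ALAS product into porphobilinogen, was at 31.1 and 29.2 CPM in drug naive and DMSO lines and at 33.0, 33.0 and 29.0 CPM in the early stage lines in order of dose. It was at 21.0 CPM at 50 nM and 10.8 CPM at 200 nM. Its early stage lines overlapped the controls (log2 fold change 0.06 ± 0.25, FDR 0.870), and both late stage lines were below all others.

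UROS, which closes the ring, was at 21.4 and 18.8 CPM in the controls, 36.3, 30.7 and 31.0 CPM in early stage lines, 29.6 CPM at 50 nM and 18.1 CPM at 200 nM. The 50 nM line was close to the early stage lines and the 200 nM line was below the controls. Its early stage log2 fold change was 0.68 ± 0.22 (FDR 0.0379). UROD, which removes carboxyl groups from the side chains of the ring, was at 258 and 313 CPM in the controls, 369, 456 and 370 CPM in early stage lines and 354 and 330 CPM in late stage lines. All 5 DasR lines were above both controls, which held for no other of the 9 genes and for 25.1% of the genes tested. Its log2 fold change was 0.47 ± 0.12 in early stage lines (FDR 0.0191) and 0.24 ± 0.14 in late stage lines (FDR 0.201).

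CPOX, which acts on the ring in the space between the mitochondrial membranes, differed between the controls by more than between stages, with 121 CPM in the drug naive line and 61.2 CPM in the DMSO line. It was at 103, 102 and 81.4 CPM in early stage lines and 83.4 and 70.7 CPM in late stage lines, all between the 2 controls. Its early stage log2 fold change was 0.05 ± 0.28 (FDR 0.901). Without the DMSO line it was −0.40, and without the drug naive line 0.65, so its direction depended on which control was used. PPOX, which oxidises the ring to protoporphyrin, was at 36.2 and 44.2 CPM in the controls, 88.1, 126 and 89.9 CPM in early stage lines, 41.6 CPM at 50 nM and 20.0 CPM at 200 nM. All early stage lines were above both controls, the 50 nM line was between the controls and the 200 nM line below them. Its early stage log2 fold change was 1.32 ± 0.31 (FDR 0.0124), the largest of the 9 after ALAS2.

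FECH, which inserts iron to complete heme, was at 87.0 and 88.9 CPM in the controls and 159, 169 and 144 CPM in early stage lines. It was at 108 CPM at 50 nM and 80.9 CPM at 200 nM. The groups did not overlap between early stage lines and controls, and the ratio of DMSO to drug naive was 1.02. The control mean was 87.9 ± 1.34 CPM (SD, n = 2) and the early stage mean 157 ± 12.5 CPM (SD, n = 3). The log2 fold change was 0.82 ± 0.14 with an FDR of 0.00362, which makes FECH the 1 gene of the 9 past the study's threshold in this test. With any 1 control or early stage line left out, its log2 fold change stayed between 0.77 and 0.88, but the FDR was between 0.00958 (without the 25 nM line) and 0.0318 (without the drug naive line), above 0.005, and the share of the genes tested that passed in those fits was between 1.84% and 10.8%. With a late stage line left out, ALAS2, PPOX and FECH all passed 0.005, where 19.9% of the genes tested did so in either direction against 18.0% with all lines. With no line left out DESeq2 called UROD, PPOX and FECH, where it called 33.9% of the genes tested.

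SLC25A37, the mitochondrial iron carrier, was at 268 CPM in the drug naive line and 134 CPM in the DMSO line. It was at 514, 433 and 348 CPM in early stage lines, 294 CPM at 50 nM and 124 CPM at 200 nM. All early stage lines were above both controls, but the controls differed by a ratio of 0.499, and the log2 fold change of 1.08 ± 0.43 had an FDR of 0.0759. SLC25A38, the glycine carrier, was the steadiest of the 9, with 44.9 and 48.1 CPM in the controls, 50.4, 55.1 and 56.0 CPM in early stage lines and 48.1 and 44.6 CPM in late stage lines. Its highest and lowest lines differed by a ratio of 1.26, and its early stage log2 fold change was 0.20 ± 0.09 (FDR 0.111).

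**Figure D2:**
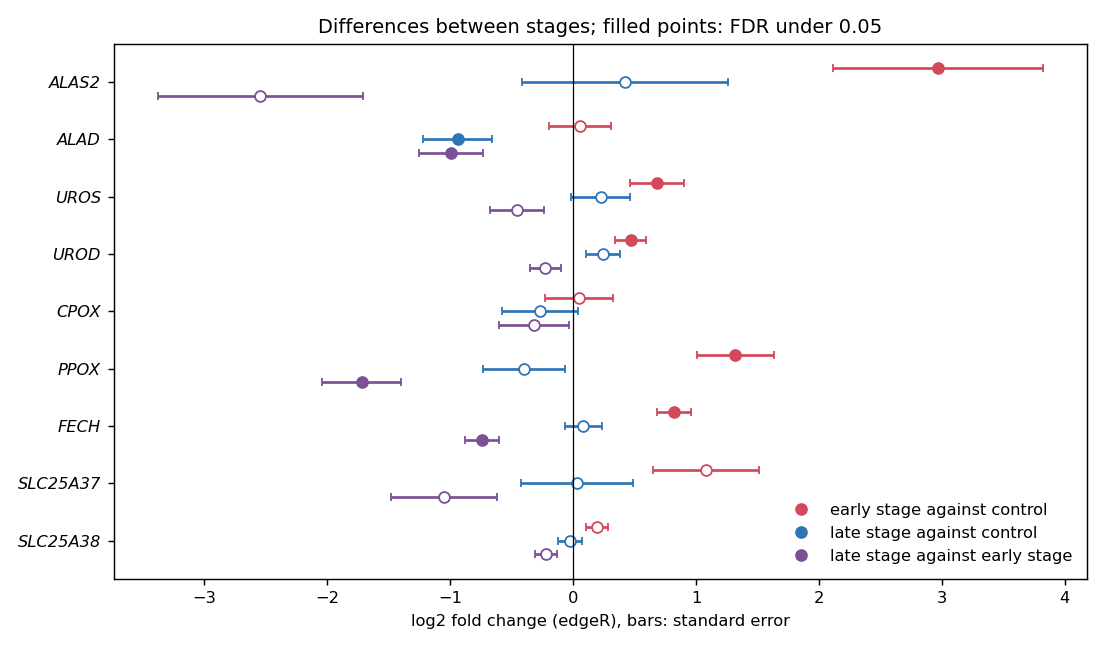
Log2 fold change from edgeR with its standard error (bars) for the 9 genes in early stage lines against controls (red), late stage lines against controls (blue) and late against early stage lines (purple), filled where the FDR was under 0.05. In early stage lines against controls all 9 values were above 0, from 0.05 for CPOX to 2.97 for ALAS2, and in late against early stage lines all 9 were below 0.

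Between late stage lines and controls, the question was whether the early stage levels were held at higher doses. None of the 9 genes passed an FDR of 0.005 by edgeR, where 7.98% of the genes tested did. By the same test 1 of 9 had an unadjusted p under 0.05, where 45.9% of the genes tested did. That gene was ALAD, with a log2 fold change of −0.94 ± 0.28 and an FDR of 0.0382. At an FDR of 0.05, 17.6% of the genes tested were lower. The median of the 9 was 0.03, against −0.004 for all genes. ALAS2 had a log2 fold change of 0.43 ± 0.84 (FDR 0.721), but its late stage lines lay on either side of the controls. Without the 50 nM line the value was −2.07 (FDR 0.0146), and without the 200 nM line it was 1.29 (FDR 0.0358). ALAD was −1.51 without the 50 nM line (FDR 0.00408) and −0.53 without the 200 nM line (FDR 0.0531). For PPOX the value was −0.40 ± 0.33, for FECH 0.08 ± 0.15 and for SLC25A37 0.03 ± 0.46, and the smallest of these 3 FDR values was 0.382.

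Late stage lines were compared with early stage lines directly. All 9 log2 fold changes were below 0, with a median of −0.74 against −0.005 for all genes, and in 8 of 9 genes (all but CPOX) both late stage lines were below every early stage line, a pattern seen in 26.4% of the genes tested. No gene of the 10452 passed 0.005 by edgeR or limma voom, although 3450 (33.0%) had an unadjusted p under 0.05, 6 of the 9 among them. DESeq2 called ALAD, PPOX and FECH, and 10.9% of the genes tested. At an FDR of 0.05, 3 of 9 were lower by edgeR against 6.10% of the genes tested. These were PPOX with −1.72 ± 0.32 (FDR 0.0223), FECH with −0.74 ± 0.14 (FDR 0.0230) and ALAD with −0.996 ± 0.26 (FDR 0.0493). ALAS2 had the largest value, −2.54 ± 0.84, with an FDR of 0.0849. Without the 50 nM line it was −5.04 (FDR 0.00292), and without the 200 nM line −1.68 (FDR 0.0930). The early stage lines enter this comparison and that with the controls, so the 2 are not independent.

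Within the late stage, all 9 genes were lower at 200 nM than at 50 nM, where 47.1% of the genes tested were lower. The ratio of 200 to 50 nM was 0.0985 for ALAS2, 0.423 for SLC25A37 and 0.481 for PPOX, and these 3 were below 0.5, as 2.41% of the genes tested were. ALAD (0.515), UROS (0.610) and FECH (0.750) came next. CPOX (0.847), SLC25A38 (0.927) and UROD (0.933) were nearest to 1. With 1 library at each dose these ratios have no replicate check. At 200 nM ALAS2 was at 0.244 of the control mean, ALAD at 0.360, PPOX at 0.497 and SLC25A37 at 0.619, while UROD was at 1.16.

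All 5 DasR lines were also set against the 2 controls, a grouping that uses the treatment label and no clustering. None of the 9 passed an FDR of 0.005 or 0.05 by edgeR, where 8.08% and 32.4% of the genes tested did so. UROD, with 0.38 ± 0.14 (FDR 0.0712), was the 1 gene of the 9 with an unadjusted p under 0.05, where 44.2% of the genes tested had one. ALAS2 had 2.39 ± 1.20 (SE, FDR 0.167).

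Per kilobase of the length the authors gave for each gene, the order of levels could be compared between genes. In controls UROD was highest at 196 ± 26.7 CPM per kilobase (SD, n = 2), followed by SLC25A37 at 108 ± 50.8, whose lines did not overlap those of UROD. CPOX (33.6 ± 15.6), ALAS2 (23.4 ± 5.96), PPOX (22.8 ± 3.20) and SLC25A38 (21.9 ± 1.07) did not differ beyond their spread. UROS (14.9 ± 1.32), FECH (12.1 ± 0.184) and ALAD (9.46 ± 0.427) were lowest. In early stage lines ALAS2 was at 186 ± 50.7 CPM per kilobase (SD, n = 3), within the spread of SLC25A37 (232 ± 44.6) and below UROD (273 ± 34.3), and at 200 nM it was at 5.71, above ALAD alone (3.41). By these lengths ALAD was the lowest of the 9 in all 7 lines. These lengths are of gene models and not of the transcripts present in K562 cells.

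**Figure D3:**
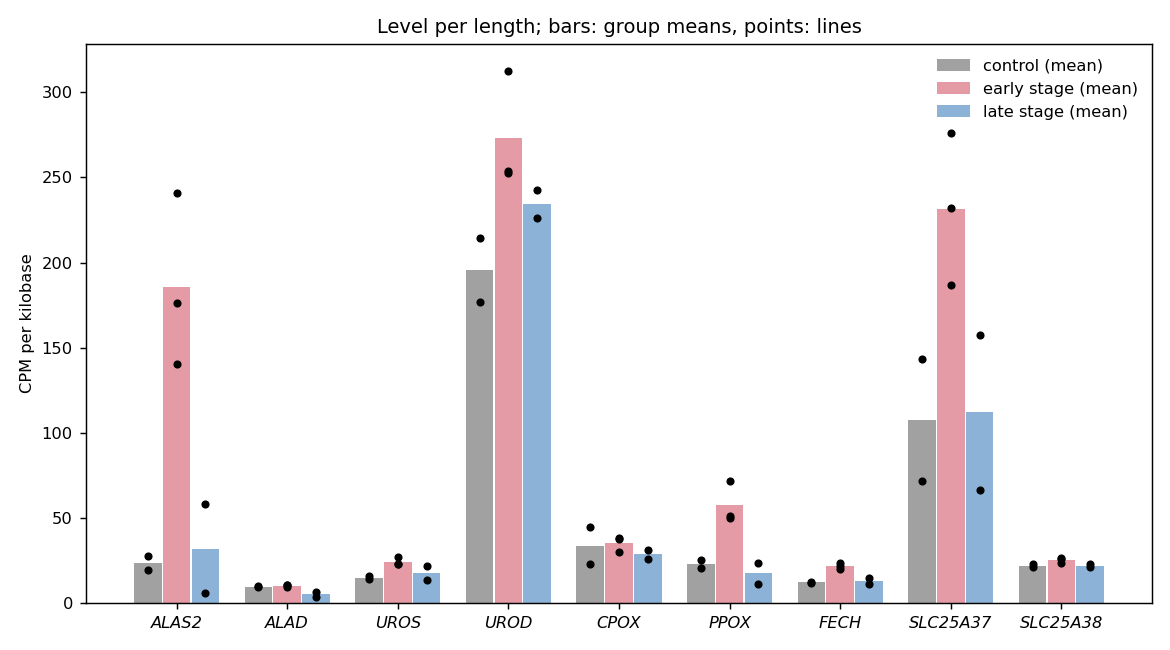
Level per length in CPM per kilobase (linear axis from 0) of the 9 genes, with bars for the mean of 2 controls (gray), 3 early stage lines (red) and 2 late stage lines (blue) and points for the single lines. UROD was highest in controls at 196, and ALAS2 went from 23.4 in controls to 186 in early stage lines.

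The 9 genes differed in how far they varied. Each gene's log2 CPM was centred on its mean over the 7 lines, and likeness was taken as the root mean square difference between 2 genes, which grows with the size of a gene's changes as well as with their course. ALAS2 varied most (SD over lines 1.82 on the log2 scale), above 98.5% of the genes tested, whose median SD was 0.235. SLC25A38 (0.117) and UROD (0.224) varied less than that median. FECH and UROS were nearest each other (0.171), as were UROD and SLC25A38 (0.158), while ALAS2 was 1.03 from PPOX, its nearest member. Among all genes tested, those nearest to ALAS2 were SHC2 (0.396), CYP3A5 (0.397), EMILIN2 (0.441), MYH14 (0.515) and ACP5 (0.528). All 5 were below 10 CPM in the controls and in the late stage lines and were tested only because early stage lines were above it, so the filter on low counts had a part in their likeness to ALAS2. CYP3A5, which encodes a drug-metabolising cytochrome P450 that itself holds heme, was at 7.5 and 7.2 CPM in the controls, 29.7, 50.9 and 37.5 CPM in early stage lines, and 9.8 and 1.6 CPM in late stage lines. Those nearest to FECH included KBTBD6 (0.0800), KIAA0754 (0.0855), ZNF273 (0.0856) and DCLRE1B (0.0915).

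The rest of the heme and iron pathway was read from a list of 55 genes, 51 of them tested. In early stage lines against controls 4 rose and 6 fell at an FDR of 0.005, where 7.92% and 10.1% of the genes tested did so, and the median log2 fold change was 0.02. Those that rose were TFRC (the transferrin receptor, 1.13 ± 0.12, FDR 0.000677), ABCB6 (a porphyrin transporter, 1.35 ± 0.15, FDR 0.000808), STEAP3 (which reduces iron in endosomes, 1.24 ± 0.16, FDR 0.00132) and GLRX5 (which passes on iron-sulfur clusters, 0.57 ± 0.10, FDR 0.00384). TFRC was at 594 and 485 CPM in the controls, 1220, 1143 and 1218 CPM in early stage lines, and 1017 and 960 CPM in late stage lines. All 5 DasR lines were thus above both controls, a pattern seen in 25.1% of the genes tested. STEAP3 was also at 60.5 CPM or more in every DasR line against 21.2 and 32.8 CPM in the controls. TFRC (0.85 ± 0.13), STEAP3 (1.18 ± 0.17) and GLRX5 (1.02 ± 0.11) passed 0.005 in late stage lines too, as 3.42% of the genes tested did in that direction, with FDR values of 0.00373, 0.00341 and 0.00128.

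Of the 6 genes that fell in early stage lines, 3 belonged to the 5 listed for the supply of precursors. SHMT2, which makes glycine in mitochondria, was at 376 and 403 CPM in the controls, 186, 186 and 192 CPM in early stage lines, and 237 and 261 CPM in late stage lines (early stage log2 fold change −1.07 ± 0.08, FDR 0.000182). SUCLG1, a subunit of the enzyme that turns over succinyl-CoA, had −0.91 ± 0.11 (FDR 0.00105), and SLC6A9, a glycine transporter of the cell surface, −0.86 ± 0.14 (FDR 0.00334). LONP1, a mitochondrial protease, had −1.16 ± 0.12 (FDR 0.000614), SLC48A1, a heme transporter of lysosomes, −1.40 ± 0.16 (FDR 0.000810) and HSPA9, a chaperone of iron-sulfur assembly, −0.62 ± 0.09 (FDR 0.00202). In late stage lines SHMT2 (−0.67 ± 0.09, FDR 0.00221), SLC6A9 (−1.17 ± 0.16, FDR 0.00293) and ABCB10 (−0.70 ± 0.11, FDR 0.00457) fell, where 4.56% of the genes tested fell. ABCB10, a partner of SLC25A37 in the inner membrane, was at 276 and 281 CPM in the controls, 285, 318 and 272 CPM in early stage lines, and 185 and 163 CPM in late stage lines.

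In late against early stage lines, none of the 51 passed 0.005 by edgeR and 21 had an unadjusted p under 0.05, against the 33.0% of all genes. At an FDR of 0.05, 3 were higher (SHMT2, LONP1 and GLRX5, where 6.60% of the genes tested were) and 5 lower (6.10% of the genes tested), among them ABCB10 (−0.75 ± 0.10, FDR 0.0167) and ABCB6 (−1.02 ± 0.15, FDR 0.0167). TMEM14C, which helps a porphyrin precursor cross the inner mitochondrial membrane (0.11 ± 0.12), SLC25A28, the iron carrier of other tissues (−0.17 ± 0.13), and FLVCR1, a heme exporter (0.39 ± 0.19), did not pass in early stage lines, with FDR values of 0.482, 0.334 and 0.135. HMOX1, the inducible enzyme of heme breakdown, had 5 counts in the drug naive line, 1 count at 10 nM and 0 in the other lines, and was not tested. ABCG2, a drug exporter that also carries porphyrins and that the study follows in its other assays, was at 3.57 and 0.582 CPM in the controls, 512, 3122 and 3089 CPM in early stage lines, and 199 and 2.41 CPM in late stage lines. Its early stage log2 fold change was 10.08 ± 2.25 (FDR 0.00993), but it was below 10 CPM in both controls and was tested only because DasR lines were above it.

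**Figure D4:**
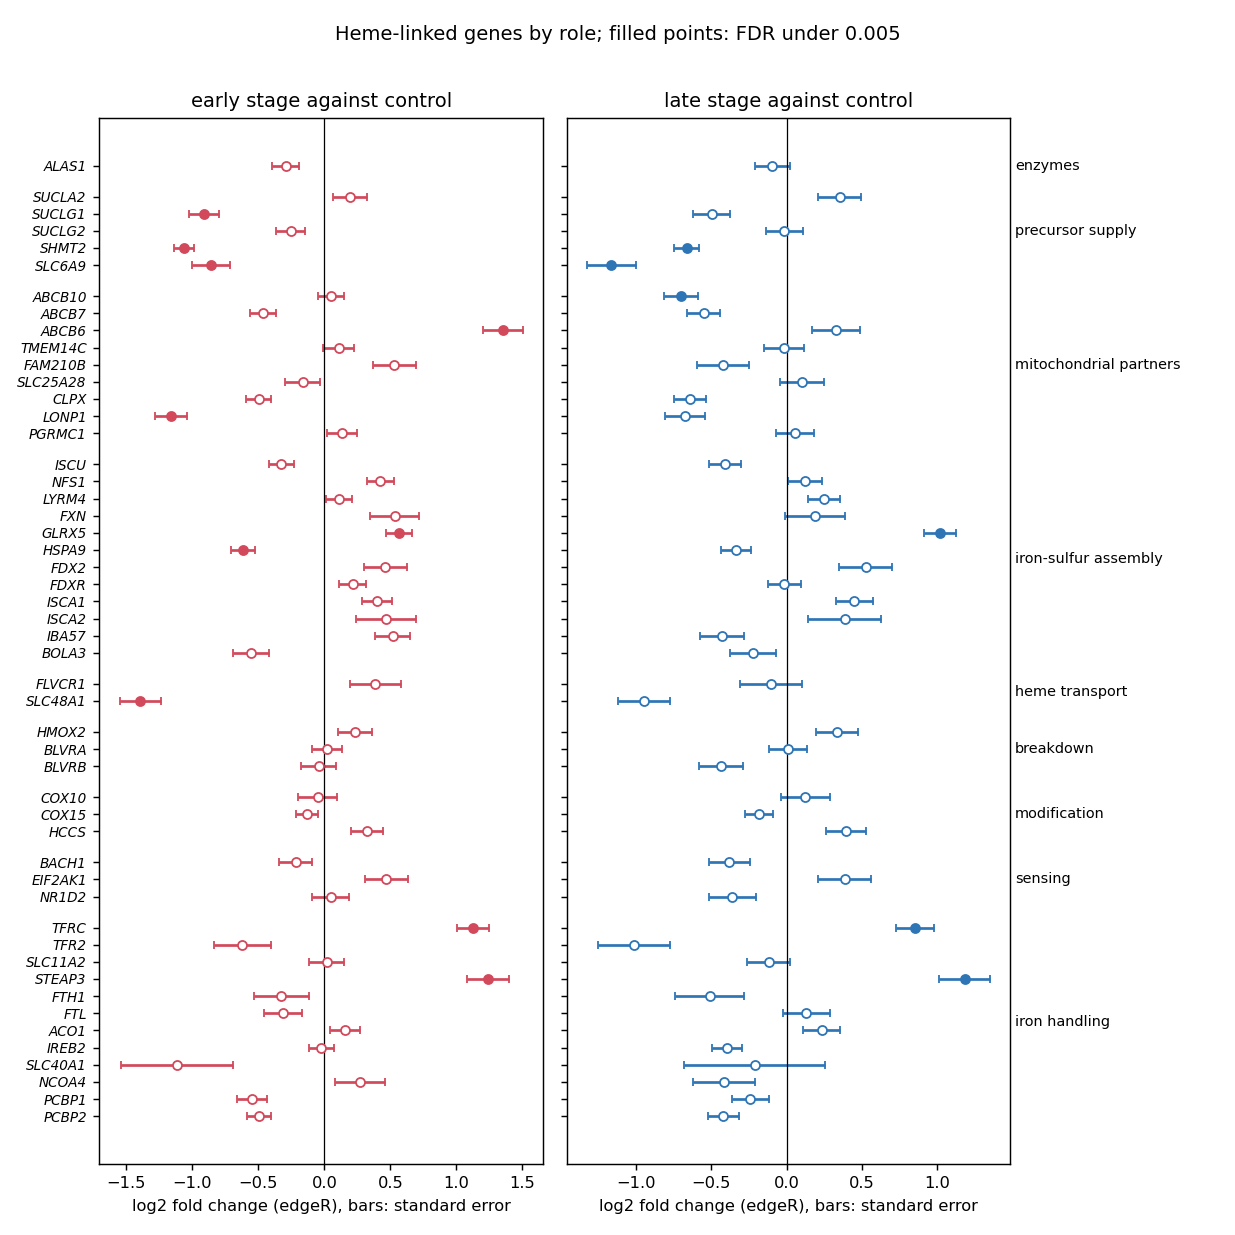
Log2 fold change from edgeR with its standard error (bars) of the tested genes of the heme-linked list, ordered by role, in early stage lines (left) and late stage lines (right) against controls, filled where the FDR was under 0.005. ABCG2, at 10.08 and 5.61, is left out so that the axis can be read, and the 2 panels have axes of their own. TFRC, STEAP3 and GLRX5 are filled on the right in both panels, and SHMT2 and SLC6A9 on the left in both.

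Globins and other red cell genes, which bear on the labelled cell type, were measured beside the 9 genes. HBB, the adult beta globin, was at 108 counts or fewer in each library. Of 11 globin genes listed (with AHSP, the chaperone of alpha globin), 7 were tested and 3 rose in early stage lines, where 7.92% of the genes tested rose, and the median log2 fold change of the 7 was 1.24. HBA2 had 3.51 ± 0.57 (FDR 0.00307), HBA1 3.06 ± 0.56 (FDR 0.00469) and HBG1 1.24 ± 0.19 (FDR 0.00240). HBA1 and HBA2, and HBG1 and HBG2, are near-identical copies, so the split of reads within each pair is uncertain. AHSP was at 41 and 55 counts in the controls and at 15 counts or fewer in each DasR line. Of 9 genes of the red cell membrane, 8 were tested and 3 rose (ANK1, SPTB and EPOR), against the same 7.92%. HBQ1, a minor globin gene, and SLC4A1 were below 10 CPM in both controls and were tested only because other lines were above it. SLC4A1, the anion exchanger of red cells, was at 5.09 and 4.95 CPM in the controls, 139, 64.5 and 57.6 CPM in early stage lines, and 53.2 and 2.87 CPM in late stage lines. Its log2 fold change was 4.10 ± 1.12 (FDR 0.0212).

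The summed level of the 9 heme genes was 926 and 778 CPM in the controls, 1730, 1918 and 1450 CPM in early stage lines, and 1103 and 711 CPM in late stage lines. Globins summed to 2916 and 2637 CPM in the controls, 9888, 11363 and 8472 CPM in early stage lines, and 5074 and 3333 CPM in late stage lines. Both sums were highest at 15 nM, but at 200 nM the heme genes were below both controls and the globins above both. The sum of the 5 precursor genes, of which SHMT2 was the largest part, was lower in every DasR line, with 624 and 680 CPM in the controls, 369, 366 and 368 CPM in early stage lines, and 428 and 471 CPM in late stage lines. Its members were not alike. SUCLA2, a subunit of the same enzyme as SUCLG1, was at 25.2 and 33.9 CPM in the controls, 33.0, 35.9 and 33.5 CPM in early stage lines, and 36.1 and 40.3 CPM in late stage lines, where its log2 fold change was 0.35 ± 0.14 (FDR 0.0942). SUCLG2, another subunit, had −0.02 ± 0.12 in late stage lines (FDR 0.932).

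**Figure D5:**
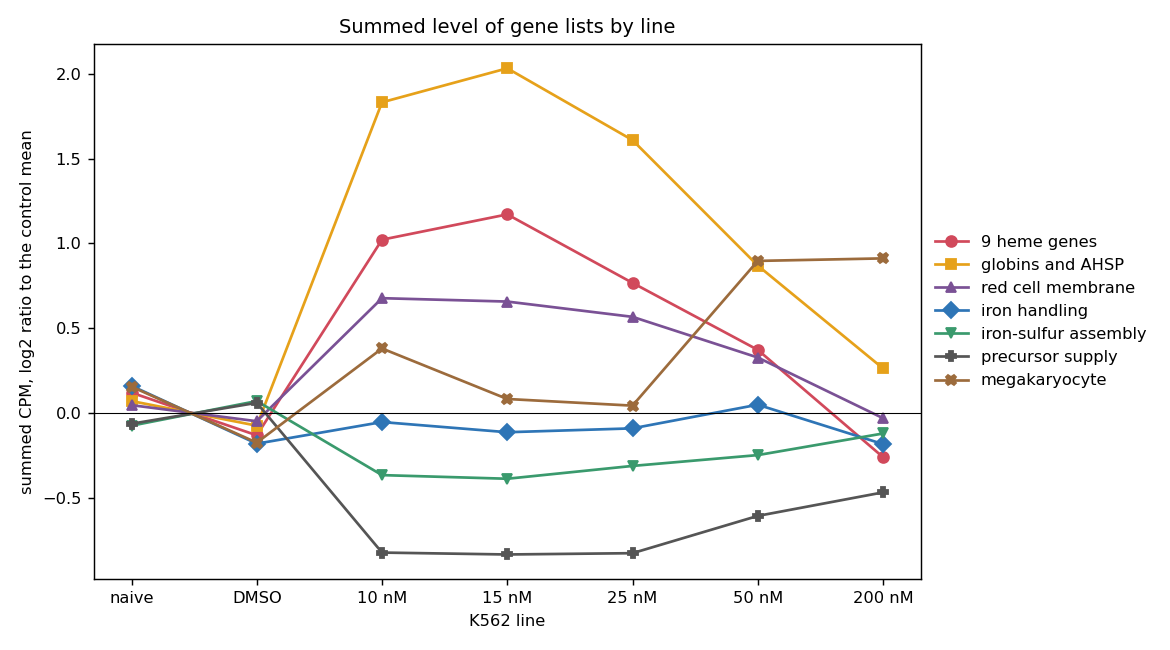
Summed CPM of gene lists in each K562 line as the log2 ratio to the mean of the 2 controls, 1 point per library, with lines drawn only to join the points of a list. The 9 heme genes and the globins peaked at 15 nM (1918 and 11363 CPM), and precursor supply was lower in all 5 DasR lines than in both controls.

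Of 12 erythroid factors, 11 were tested, and LMO2 (1.09 ± 0.12, FDR 0.000762) and ZFPM1 (1.06 ± 0.15, FDR 0.00209), both partners of GATA factors, rose in early stage lines while GATA2 fell (−1.31 ± 0.22, FDR 0.00355). Of all genes tested 7.92% rose and 10.1% fell. GATA1, the factor named for the motif above, was at 201 and 217 CPM in the controls, 165, 206 and 191 CPM in early stage lines, and 235 and 295 CPM in late stage lines. It was thus highest at 200 nM, as 21.2% of the genes tested were, and its early stage log2 fold change was −0.18 ± 0.13 (FDR 0.283). ALAS2 was lowest in that line, and the relation between GATA1 and ALAS2 was not tested. KLF1, an erythroid activator, was at 66.2 and 58.9 CPM in the controls, 112, 98.4 and 88.5 CPM in early stage lines, and 82.6 and 81.1 CPM in late stage lines, with 0.66 ± 0.13 in early stage lines (FDR 0.00565).

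Markers of other blood cells were summed in the same libraries. The 12 megakaryocyte markers gave 92.9 and 73.9 CPM in the controls, 109, 88.3 and 85.9 CPM in early stage lines, and 155 and 157 CPM in late stage lines and were highest in the 2 late stage lines. ITGA2B led that sum in the controls, at 63.9 and 52.5 CPM, and was at 13.4, 5.96 and 13.2 CPM in early stage lines and 56.8 and 99.2 CPM in late stage lines, while GP1BB was at 0 and PF4 at or near 0 in every line. Of the 4 megakaryocyte markers tested, ITGA2B fell in early stage lines (−2.44 ± 0.37, FDR 0.00234) and THBS1, a protein of platelet granules that other cells also make, rose (4.60 ± 0.71, FDR 0.00260). Of all genes tested 10.1% fell and 7.92% rose. THBS1 was at 0.904 and 1.75 CPM in the controls, 16.6, 45.4 and 36.9 CPM in early stage lines, and 52.8 and 17.8 CPM in late stage lines. VWF (5.08 ± 1.22, FDR 0.0131) and TUBB1 (1.31 ± 0.29, FDR 0.00992) did not pass 0.005 in early stage lines. Both were higher in all 5 DasR lines than in both controls, a pattern seen in 25.1% of the genes tested. THBS1 and VWF were below 10 CPM in both controls, so they were tested only because DasR lines were above it. The 15 granulocyte and monocyte markers gave 151 and 138 CPM in the controls, 160, 50.3 and 78.2 CPM in early stage lines, and 163 and 168 CPM in late stage lines. LYZ led that sum at 200 nM, at 98.9 CPM, and had 0.23 ± 0.52 in early stage lines (FDR 0.743). The other 2 tested, SPI1, a myeloid factor, and CD33, a myeloid surface protein, did not pass 0.005. SPI1 was at 35.4 and 37.6 CPM in the controls and 19.7, 6.18 and 11.3 CPM in early stage lines (−1.57 ± 0.40, FDR 0.0158), and CD33 at 28.9 and 33.9 CPM in the controls and 21.3, 11.5 and 17.7 CPM in early stage lines (−0.91 ± 0.24, FDR 0.0171). MPO and ELANE were at 3 counts or fewer in every line. The 7 lymphoid markers gave 24.7 and 18.7 CPM in the controls, 8.81, 7.69 and 13.1 CPM in early stage lines, and 26.7 and 33.7 CPM in late stage lines, with CD3D the most abundant at 200 nM. The part of these lists in the levels of the heme genes was not tested.

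The 9 genes lie on 7 chromosomes. In GRCh37, the build of the authors' alignment (hg19), ALAS2 is at chrX:55035488-55057410 on the minus strand, ALAD at chr9:116148592-116163570 (minus), UROS at chr10:127473549-127511827 (minus), UROD at chr1:45476622-45481247 (plus), CPOX at chr3:98298290-98312492 (minus), PPOX at chr1:161135846-161147803 (plus), FECH at chr18:55211609-55253964 (minus), SLC25A37 at chr8:23386469-23432976 (plus) and SLC25A38 at chr3:39424861-39438842 (plus). Some counted bases are shared with other genes. In the annotation of this build 1118 bases, 23.7%, of the exons of PPOX lie over B4GALT3 on the opposite strand, 375 bases (9.31%) of those of UROD over HECTD3 on the opposite strand, 163 bases (5.16%) of those of CPOX over another gene model on the same strand, and 3 bases of ALAS2 over APEX2. The library kit keeps strand, but whether the counting used it is not given in the sources used here, so reads there cannot be assigned with certainty. B4GALT3 was at 72.4 and 82.3 CPM in the controls and 62.4, 68.4 and 73.2 CPM in early stage lines (log2 fold change −0.20 ± 0.10, FDR 0.128), where PPOX was higher. HECTD3 was at 94.9 and 96.8 CPM in the controls and 111, 129 and 119 CPM in early stage lines, with 0.30 ± 0.09 (FDR 0.0245), the same direction as UROD.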

How the data were processed

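RNA from 7 K562 lines was sequenced, 1 library per line, after depletion of ribosomal RNA, with a directional kit and paired reads. Alignment was with STAR to hg19 by the authors, who deposited raw counts per gene, and the submitters' processing notes also name featureCounts, edgeR and FastQC. The 2 deposited tables of the authors' comparisons hold fold changes, mean levels, p-values and FDR values, all left unused. Gene symbols and lengths in bases were taken from these tables, with further symbols from RefSeq, so that 23738 of 25702 IDs had a symbol.

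A gene was kept if 2 or more libraries had 10 CPM or more (10452 genes). Scaling was by TMM and the test was the quasi-likelihood F-test (glmQLFit, glmQLFTest) of edgeR 4.0.16 in R 4.3.3, with 1 coefficient per stage, or 1 for all DasR lines, and p-values adjusted by Benjamini-Hochberg over all genes tested. The SE is the size of the log2 fold change divided by the square root of F. CPM printed here are on library totals, before TMM. The common dispersion was 0.0260, a coefficient of variation of 0.161. Libraries of a group are different lines, so p-values measure the spread between these lines, and no line had a repeat library. Lines of a group differed by more than sampling noise (chi-square per degree of freedom 21.1 to 70.1). The floor of 3 counts (0.108 to 0.150 CPM) covers counting error only.

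The members and all lists were chosen with earlier results of these data known. The genes named are the 9 members, 7 fixed genes of the heme-linked list, the 5 with the smallest p in each direction among those past the FDR, the 5 nearest in pattern to ALAS2 and FECH (log2 CPM with a prior count of 2), and examples of the other lists. SLC6A9 in early stage lines, AHSP, CYP3A5's single values and the overlapping genes were chosen after their values were seen. Some genes are not reported here and were left out of the counts and sums of lists. Locations came from GENCODE for GRCh37.

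In a test on simulated counts of 10452 genes, of which 200 had a log2 change of 2, edgeR called 199 genes in early stage lines against controls, 196 of them changed. Every simulated gene had the common dispersion, and no change smaller than 2 was tried. The test therefore gives no error rate or power for smaller changes or for genes with a wider spread between lines. Alternatives were DESeq2 1.42.0, limma voom 3.58.1, library totals or DESeq2 size factors in place of TMM, 2 other filters, fewer groups in the fit, an FDR of 0.05, and leaving out each library.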

Additional observations from a re-analysis of the deposited data

How the results depend on the processing

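The count of the 9 genes past an FDR of 0.005 in early stage lines against controls was 1 with edgeR, 3 with DESeq2, 2 with no filter on low counts, 3 with the late stage lines left out of the fit and 5 at an FDR of 0.05. The share of all genes tested past the threshold in either direction was 18.0%, 33.9%, 12.1%, 19.9% and 46.5% in that order. Leaving out 1 library gave 0 to 3, with 0 without any control or early stage line and 3 without either late stage line, where that share was 1.84% to 10.8% and 19.9%. In late stage lines against controls it was 0, and 1 at an FDR of 0.05, with 0 to 1 when 1 library was left out (ALAD, without the 50 nM line, with 2.89% of all genes). In late against early stage lines it was 0, and 3 with DESeq2 and at an FDR of 0.05, with 0 to 3 when 1 library was left out (ALAS2, ALAD and PPOX, without the 50 nM line, with 1.92% of all genes). For all DasR lines against controls it was 0 under every alternative tried, where edgeR with all lines called 8.08% of the genes tested at 0.005.

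Some values turned direction, none of them past the threshold with all lines. In late stage lines against controls, limma voom gave −0.37 for ALAS2 and −0.0030 for SLC25A37, and SLC25A38 was 0.0083 with the filter at 1 CPM and 0.025 with none. CPOX in all DasR lines was 0.019 with limma voom. With 1 library left out, log2 fold changes ran from −0.031 to 0.12 for ALAD and from −0.40 to 0.65 for CPOX in early stage lines. In late stage lines against controls they ran from −2.07 to 1.29 for ALAS2, −0.19 to 0.55 for UROS, −0.71 to 0.33 for CPOX, −1.04 to 0.041 for PPOX, −0.15 to 0.28 for FECH, −0.73 to 0.64 for SLC25A37 and −0.089 to 0.040 for SLC25A38. For CPOX in all DasR lines they ran from −0.52 to 0.53. The cause was not tested. Apart from leaving out libraries, 232 of the other results kept their direction and side of the threshold, 8 passed it and 5 turned. The 5 genes nearest to ALAS2 and to FECH were the same with library totals in place of TMM.

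No paired analysis was possible because the labels give each line 1 library and no replicate number. With 2 or 3 lines per group, a difference as small as that of SLC25A38 (0.20 on the log2 scale) did not pass the threshold, and no line can be told from its dose. With 1 line left in a group, that line was taken to vary like the others.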

Other observations

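The protein-coding genes next to ALAS2 on chromosome X were looked at after the values of APEX2 were seen, so their values are given as a description. Within 250 kb of ALAS2, 6 other protein-coding genes were tested (MAGED2, APEX2, PAGE2B, PAGE2, FAM104B and PAGE5). PAGE2, PAGE2B and FAM104B were below 10 CPM in both controls and were tested only because DasR lines were above it, so a count of the 6 past the threshold is not set against that of all genes.

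PAGE2B, of a family of genes known mainly from testis, had 32 and 28 counts in the controls, 1879, 2866 and 1369 counts in early stage lines, 351 at 50 nM and 37 at 200 nM. Its log2 fold change was 5.87 in early stage lines (FDR 0.00299) and 2.77 in late stage lines (FDR 0.0571). PAGE2 had 13 and 9 counts in the controls, 706, 1310 and 527 counts in early stage lines, and 68 and 9 counts in late stage lines, with 6.03 (FDR 0.00178). PAGE2 and PAGE2B are near-identical, so the split of reads between them is uncertain. APEX2, a DNA repair nuclease whose gene ends beside that of ALAS2, was at 31.9 and 37.2 CPM in the controls, 63.4, 103 and 78.9 CPM in early stage lines, and 44.9 and 34.5 CPM in late stage lines, with 1.23 (FDR 0.00413). PAGE5 was at 31.7 and 37.5 CPM in the controls, 74.1, 81.2 and 71.9 CPM in early stage lines, and 61.4 and 48.8 CPM in late stage lines, with 1.12 (FDR 0.000980) in early stage lines. FAM104B had 0.9996 (FDR 0.00971) and MAGED2, the farthest of the 6, 0.19 (FDR 0.544). All 6 were highest at 15 nM, as ALAS2 was and as 20.5% of the genes tested were. For PAGE2, PAGE2B and FAM104B the filter on low counts had a part in this, so the 6 are not weighed against that share. At 200 nM PAGE5 was above both controls, PAGE2B was at 1.71 CPM against 1.52 and 1.16 CPM in the controls, APEX2 and PAGE2 lay between the controls, and FAM104B and MAGED2 were below both. What these genes share beyond their position was not tested.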
